A study of Homo sapiens with 8 samples.

Results

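MYC and 45 genes whose products build ribosomes were followed in MDA-MB-231 cells, an ER-negative human breast cancer line, with and without carboxymethyllysine (CML). CML is an advanced glycation end product, a lysine residue modified by reactive sugar derivatives, and the exposure addressed how such a product acts on breast cancer cells. The 46 genes were chosen by symbol for their role, but with earlier results of these data known, so the choice was not blind to the values. All 46 were found among the 17649 genes of the deposited expression table. The control group held 4 libraries of cells grown for 48 h in 5 mM glucose with vehicle (PBS), and the CML group held 4 libraries of cells grown for 48 h in 5 mM glucose with 1 µM CML. All 8 libraries came from the same line, so the data describe 1 line at 1 dose and 1 time, and no source used here says that the replicates were separate cultures; p-values therefore measure the spread between these libraries. Genes expected in this mesenchymal-like line were abundant, with VIM between 4014 and 4243 CPM (read counts scaled to a common library total) and AXL between 1122 and 1263 CPM. The progesterone receptor gene PGR did not exceed 0.114 CPM and the leukocyte gene PTPRC did not exceed 0.65 CPM. The endothelial gene PECAM1 was low but not absent, between 2.36 and 3.84 CPM. The estrogen receptor gene ESR1 was not among the genes of the table, so its level was not checked.

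Ribosomes are assembled in the nucleolus, where RNA polymerase I transcribes the precursor of the large ribosomal RNAs. Small nucleolar ribonucleoproteins (snoRNPs) guide its chemical modification, box C/D particles adding methyl groups and box H/ACA particles converting uridine to pseudouridine, and separate sets of assembly factors then shape the small and the large subunit. MYC is a transcription factor that dimerizes with MAX, binds the E-box, and is known for raising the expression of ribosome biogenesis genes in many tumors, including breast cancer.

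Library depth, estimated from the value that 1 read takes in each library, ranged from 16161805 to 18954735 reads, and the members were supported by 249 to 33843 reads per library. The 2 libraries numbered 4, 1 in each group, stood apart from the rest: across the 45 members with a transcript sequence, the difference between control replicate 4 and the other controls fell with transcript GC content (Pearson's r = -0.862, Spearman's rho = -0.874), and the same held for CML replicate 4 (r = -0.822, rho = -0.821). Across 12934 genes of at least 1 CPM the coefficients were -0.552 and -0.46. These are correlations across genes, which share the library and are not independent replicates. The labels name no batch, and results are therefore given with and without these libraries where they rest on them.

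The changes with CML were small, and most pointed upward. The mean was higher with CML for 39 of the 46 members, against 53.5% of all genes and 64.6% of the 7677 genes at least as abundant as the least abundant member, and the median log2 fold change of the members was 0.041, against 0.0066 for all genes and 0.019 for those abundant genes. None of the 46 members was called by limma with Benjamini-Hochberg adjustment over all genes at an adjusted p under 0.3. The study used that false discovery rate to select transcripts for its heatmap of this comparison. Its report of Myc signaling among the pathways activated by CML came from enrichment of gene sets, which was not repeated here. At 0.3 limma called 0.895% of all genes (158 of 17649). At 0.05 it called 0 genes of the table, although 1352 had an unadjusted p under 0.05. Of the members, 6 had an unadjusted p under 0.05, all with the higher level in the CML group, namely MYC, NOLC1, LYAR, URB2, EBNA1BP2 and MRTO4. That direction and p were met by 4.77% of all genes and by 7.14% of the genes at least as abundant as the least abundant member. In 3 members, NOLC1, URB2 and EBNA1BP2, every CML library lay above every control library, a pattern found in 2.50% of all genes and in 3.75% of the abundant ones. The opposite pattern was seen in 0 members and in 1.27% of all genes. CPM are shares of a library of pooled cells, so a change in every cell and a change in some cells cannot be told apart.

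**Figure D1:**
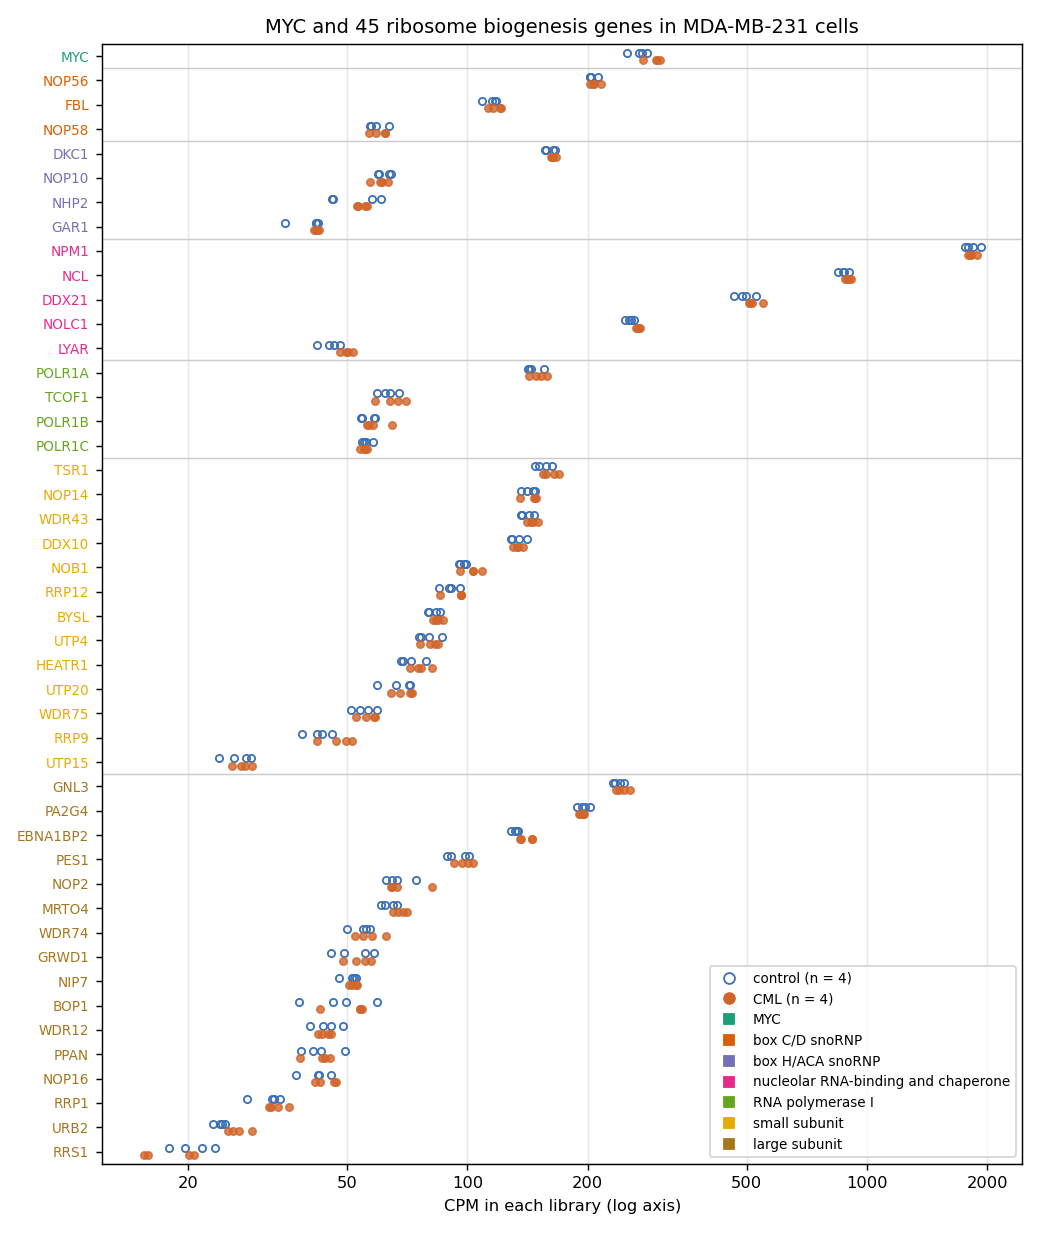
CPM of each of the 46 genes in the 4 control libraries (open blue) and the 4 CML libraries (filled orange) on a log axis, grouped by role, which the color of the gene name shows. The levels run from about 19.3 CPM (RRS1, mean of 8 libraries) to 1829 CPM (NPM1), and for 43 of the 46 genes the points of the 2 groups overlap.

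The scaling of the libraries moved the size of this shift but not its direction: 35 members were higher after each library was centered on its median and 36 after quantile normalization, with median changes of 0.022 and 0.025. The medians over all genes under the same scalings were -0.013 and 0. Without both libraries numbered 4, an alternative added after the data were seen, 40 members were higher (87%) and the median was 0.054. The share higher was then 54.2% of all genes and 67.4% of the genes at least as abundant as the least abundant member. All CML libraries lay above all controls in 10 members (21.7%), against 15.5% of those abundant genes. In the comparison of CML replicate 4 with control replicate 4 alone, 32 of the 46 members were higher (69.6%), against 45.6% of all genes.

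MYC was the regulator in the group. Its level was 282, 274, 269 and 252 CPM in control replicates 1 to 4 and 297, 304, 298 and 275 CPM in CML replicates 1 to 4. CML replicates 1 to 3 exceeded all controls, while CML replicate 4 fell below control replicate 1 and just above control replicate 2, so the groups overlapped by 1 library on each side. The means were 269 ± 12.7 CPM (SD, n = 4) and 294 ± 12.7 CPM (SD, n = 4), a difference of 9.14%, and the log2 fold change was 0.13 ± 0.044 (SE). It did not pass over all genes (limma adjusted p = 0.549), and the 2-sided exact permutation test over the 70 ways of labeling the 8 libraries gave p = 0.0571, where 0.0286 is the smallest p the design allows. The 95% interval of the change ran from 1.02-fold to 1.17-fold. Without both libraries numbered 4 the log2 fold change was 0.13 and MYC was the 1 member called (limma adjusted p = 0.259), where 1.39% of all genes were called in the higher direction. In both libraries numbered 4 MYC was lower than in the others of its group, by -0.13 and -0.12 on the log2 scale, although its transcript GC content, 48.8%, lay at the median of the members.

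Stretches that hold the E-box, the element MYC is known to bind, are shown for some of the members described here. The motif CACGTG, which reads the same on both strands and was the only motif searched, was looked for in RefSeq promoter windows (GRCh38.p14) of 250 bases before to 50 bases after a transcription start. A window at the outermost start was given for 34 members, and 10 of them held the motif (29.4%), against 10.1% of the 10362 genes of the table with such a window. Over all starts, 16 of 38 members held it (42.1%), against 12.3% of 11867 genes. Not shown are the matches of BYSL, DDX21, GAR1, GNL3, NOP2, NOP14, PES1, UTP4, UTP20 and WDR43, and another of EBNA1BP2 at an inner start. MYC, NOLC1 and URB2 were not among the 16, and not every member had a window. The genes of the table used here were not matched to the members in abundance. The runs below carry the motif in capitals, are written 5′ to 3′ on the strand of the gene, and give the position of its first base from the start, where the start is 1.
EBNA1BP2, chr1:43172790-43172819, minus strand, from -237: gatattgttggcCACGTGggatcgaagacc
MRTO4, chr1:19251807-19251836, plus strand, from 15: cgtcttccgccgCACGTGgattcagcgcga
RRP9, chr3:51941892-51941921, minus strand, from -5: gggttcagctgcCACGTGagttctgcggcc
LYAR, chr4:4290068-4290097, minus strand, from -64 of an inner start: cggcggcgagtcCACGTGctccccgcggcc
NOP10, chr15:34343289-34343318, minus strand, from -170: gtagggacactcCACGTGttttagcctgca
NOP10, chr15:34343130-34343159, minus strand, from -11: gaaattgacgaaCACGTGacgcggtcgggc
FBL, chr19:39846356-39846385, minus strand, from 7: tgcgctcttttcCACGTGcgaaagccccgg
The median log2 fold change was 0.041 for the 10 members with it at the outermost start, 9 of them higher with CML, and 0.039 for the 24 without it, 19 of them higher. A match describes letters in the window and was not tested as a binding site.

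Among the nucleolar RNA-binding proteins and chaperones, NOLC1 and LYAR had the smallest p-values. NOLC1 (chr10:102152389-102163870) encodes a phosphoprotein scaffold that accompanies snoRNPs and RNA polymerase I. Its level was 254, 249, 261 and 257 CPM in the controls and 268, 271, 264 and 267 CPM with CML, so every CML library exceeded every control, although by a narrow margin. The means of 255 ± 5.41 and 267 ± 2.69 CPM (SD, n = 4 each) differed by 4.81%. The log2 fold change of 0.068 ± 0.017 (SE) had the smallest SE of the members in the main fit (limma adjusted p = 0.381). With a filter at 1 CPM the SE of NOLC1 was 0.032 (limma adjusted p = 0.713), and after median centering its limma adjusted p was 0.734. It was called after removal of GC and length and without control replicate 4, as given below. LYAR (chr4:4267701-4290154), a nucleolar zinc finger protein linked to cell growth, was at 42.2, 48.1, 45.2 and 46.3 CPM in the controls and at 49.6, 50.2, 48 and 51.7 CPM with CML. Only CML replicate 3 and control replicate 2 crossed, and the log2 fold change was 0.13 ± 0.043 (SE, limma adjusted p = 0.496).

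The other members of this class were more abundant, and none was called. NCL, nucleolin, measured 875 ± 23.2 CPM in controls and 896 ± 12.6 CPM with CML (SD, n = 4 each), a log2 fold change of 0.035. DDX21, an RNA helicase that couples RNA polymerase I transcription to rRNA processing, measured 495 ± 25.4 and 521 ± 19.6 CPM, a log2 fold change of 0.075 ± 0.043 (SE, limma adjusted p = 0.788). NPM1, the nucleolar chaperone nucleophosmin and the most abundant member, measured 1831 ± 72.3 and 1828 ± 38.7 CPM, and its 95% interval ran from 0.944-fold to 1.06-fold. NPM1 values were not whole numbers of reads in any library, and how reads shared with near-identical copies of the gene were divided is not given, so its level is uncertain. Apart from NPM1, which made up 24.5% to 26.3% of the members' summed CPM, the other 45 genes summed to 5282, 5346, 5360 and 5389 CPM in the controls and to 5509, 5541, 5549 and 5500 CPM with CML. These sums did not overlap. Rescaled so that all columns had the same sum, the controls lay between 5333 and 5418 CPM and the CML libraries between 5464 and 5509 CPM, again without overlap. With NPM1 included the sums overlapped, since control replicate 4 was at 7316 CPM and CML replicate 1 at 7301 CPM. The sum without NPM1 is weighted toward NCL and DDX21. Neither sum was tested or set against sums of other genes.

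None of the 7 genes for the modification particles was called. The box C/D core consists here of NOP56, NOP58 and the methyltransferase FBL, and their log2 fold changes lay between 0.017 and 0.034. NOP56 was at 203, 204, 212 and 203 CPM in controls and at 203, 208, 216 and 206 CPM with CML, ranges that overlapped almost in full (limma adjusted p = 0.946). FBL was at 117, 116, 118 and 109 CPM in controls and at 121, 121, 116 and 113 CPM with CML, lowest in replicate 4 of each group. The box H/ACA core, made of the pseudouridine synthase DKC1 and its partners NHP2, NOP10 and GAR1, spanned -0.036 to 0.062. DKC1 measured 161 ± 4.7 and 164 ± 2.17 CPM (SD, n = 4 each), within the replicate spread. GAR1 was at 41.8, 42.3, 35 and 41.9 CPM in controls and at 41.9, 42.1, 42.4 and 41.4 CPM with CML, so that its log2 fold change of 0.062 came from the low control replicate 3 and was -0.0027 without it. NOP10, whose promoter window held 2 E-boxes, was slightly lower with CML, 62 ± 2.35 against 60.5 ± 2.55 CPM (limma adjusted p = 0.917).

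**Figure D2:**
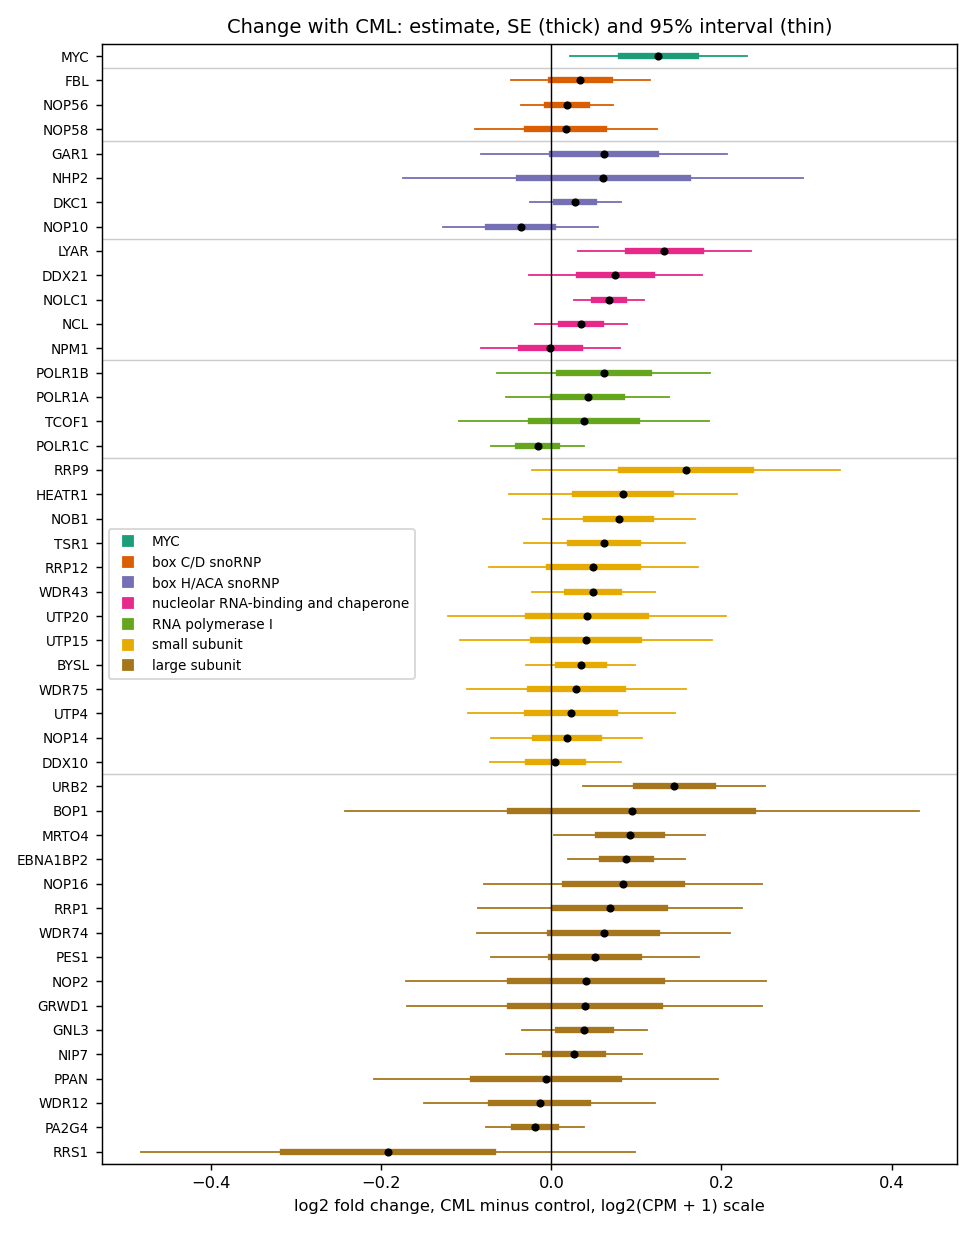
Log2 fold change of each gene, CML minus control, on the log2(CPM + 1) scale, with the SE as a thick bar and the 95% interval as a thin bar, grouped by role and colored as the legend gives. The estimates of 39 of 46 genes lie to the right of 0, and the intervals of 40 genes include 0.

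RNA polymerase I genes did not move beyond their spread. POLR1A, which encodes the largest subunit, was at 144, 143, 155 and 142 CPM in controls and at 159, 152, 148 and 143 CPM with CML, and POLR1B, the second subunit, measured 56.3 ± 2.45 against 58.9 ± 4.03 CPM (SD, n = 4 each). Their log2 fold changes were 0.043 ± 0.04 and 0.062 ± 0.053 (SE). POLR1C, a subunit shared with RNA polymerase III, was at 55.9 ± 1.55 and 55.2 ± 0.922 CPM, and TCOF1, the treacle protein that supports rDNA transcription, had a log2 fold change of 0.038. POLR1C overlaps other measured genes on the opposite strand, and no source used here states whether strand was used in counting. The same limit holds for NHP2, UTP15, HEATR1, NOP14, TSR1, PES1, WDR12, NOP16, GNL3, NIP7 and EBNA1BP2, and for TAF1A, described next. The 12 other genes of RNA polymerase I and its initiation factors gave 0 calls, 7 higher and 5 lower, with a median of 0.042. The smallest p among them was that of TAF1A, a subunit of the SL1 initiation factor, which was at 20.3, 20.9, 20.6 and 21.3 CPM in controls and at 23.4, 24, 22 and 22.7 CPM with CML, every CML library above every control (log2 fold change 0.14, limma adjusted p = 0.307). TTF1, the termination factor, and TAF1C followed with 0.11 and -0.21 (limma adjusted p = 0.717 and 0.799).

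The 13 small-subunit factors all had a higher mean with CML, and none was called. The share higher was 64.6% of the genes at least as abundant as the least abundant member, and 74.5% of 47 other small-subunit factors. The log2 fold changes of the 13 members ran from 0.0047 for DDX10, an RNA helicase, to 0.16 for RRP9, the U3 snoRNP protein, with a median of 0.042. RRP9 (chr3:51933429-51941904) was at 43.2, 45.9, 42.1 and 38.5 CPM in controls and at 46.9, 49.6, 51.6 and 41.9 CPM with CML. CML replicates 1 to 3 exceeded all controls, and replicate 4 was the lowest library of each group. The means were 42.4 ± 3.07 and 47.5 ± 4.18 CPM (SD, n = 4 each), and the log2 fold change of 0.16 ± 0.077 (SE) did not pass (limma adjusted p = 0.718). NOB1, the endonuclease that makes the final cut of 18S rRNA, was at 99.5, 95.5, 98.3 and 95.7 CPM in controls and at 103, 104, 109 and 95.9 CPM with CML, again with CML replicate 4 among the controls (log2 fold change 0.079 ± 0.038, SE, limma adjusted p = 0.712). The 5 genes that belong to the complex recruited first to the nascent transcript, UTP4, UTP15, WDR43, WDR75 and HEATR1, had log2 fold changes of 0.023, 0.04, 0.049, 0.03 and 0.085. The highest upper bound of a 95% interval in this class was that of RRP9, 1.27-fold.

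The 16 large-subunit factors spread more widely, from -0.19 for RRS1 to 0.14 for URB2, with 12 higher and 4 lower and a median of 0.046. URB2 (chr1:229626247-229660200), a nucleolar protein required for early steps of large-subunit assembly, was at 24.7, 23.1, 24.1 and 24.3 CPM in controls and at 25.9, 26.8, 25.2 and 28.9 CPM with CML, so the groups did not overlap. Its mean went from 24 ± 0.693 to 26.7 ± 1.6 CPM (SD, n = 4 each), 11.1% more, with a log2 fold change of 0.14 ± 0.045 (SE, limma adjusted p = 0.489). EBNA1BP2 (chr1:43164174-43172570), a nucleolar scaffold of the early large-subunit particle, was at 129, 134, 131 and 134 CPM in controls and at 145, 145, 136 and 136 CPM with CML. The lowest CML library lay just above the highest control, and the log2 fold change was 0.088 ± 0.029 (SE, limma adjusted p = 0.507). MRTO4 (chr1:19251805-19260128), which holds the place of the ribosomal stalk proteins on the precursor, was at 66.7, 62.1, 65.2 and 60.8 CPM in controls and at 69.1, 67, 70.6 and 65.1 CPM with CML, with CML replicate 4 below control replicates 1 and 3 (log2 fold change 0.092 ± 0.038, SE, limma adjusted p = 0.626).

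**Figure D3:**
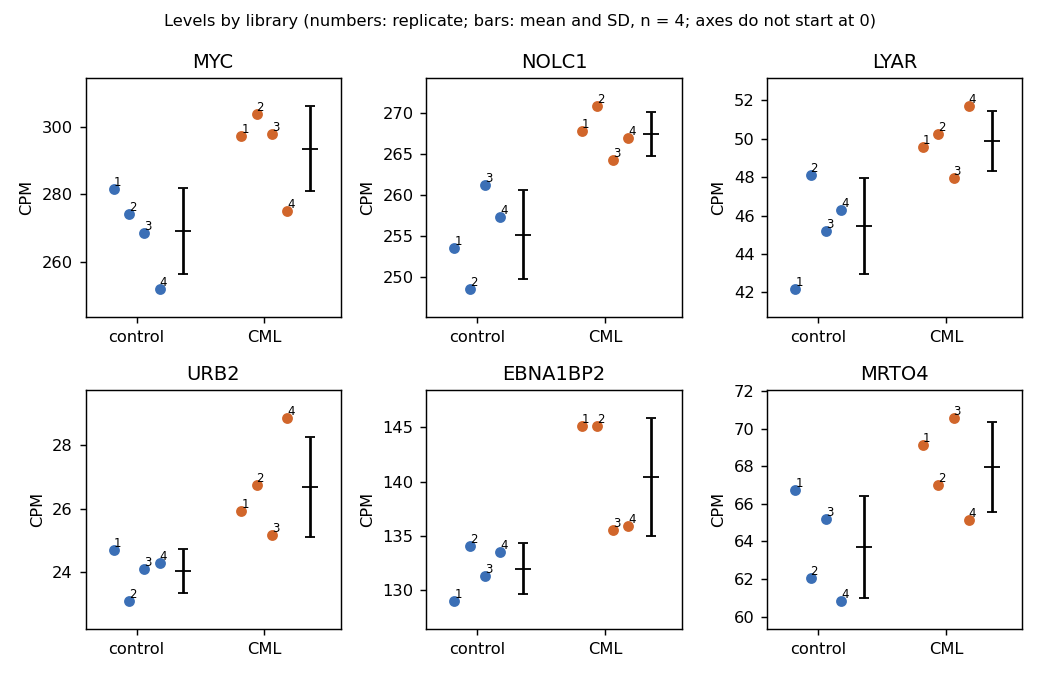
CPM of the 6 members with an unadjusted p under 0.05 in each library, numbered by replicate, with the mean and SD of each group (n = 4) as a black bar; the vertical axes do not start at 0. NOLC1, URB2 and EBNA1BP2 show no overlap between groups, whereas MYC, LYAR and MRTO4 cross.

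The PES1, BOP1 and WDR12 proteins act as one complex in maturation of the large-subunit RNAs, yet their transcripts differed in how well they were measured. PES1 was at 94.9 ± 5.84 and 98.3 ± 4.6 CPM, and WDR12 at 44.5 ± 3.5 and 44 ± 1.54 CPM (SD, n = 4 each). BOP1 was at 59.3, 49.7, 46.1 and 38 CPM in controls and at 53.7, 53.9, 54.4 and 42.9 CPM with CML. Its controls alone covered the whole range of the CML libraries, and its interval, from 0.845-fold to 1.35-fold, was the widest upward of the group.

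The 7 members with a lower mean with CML were NOP10, NPM1, POLR1C, WDR12, RRS1, PPAN and PA2G4, and 0 of them were called. RRS1, a factor that brings the 5S particle to the large subunit and the least abundant member, was at 21.7, 23.4, 18 and 19.6 CPM in controls and at 20.7, 15.8, 20.1 and 15.5 CPM with CML. CML replicates 2 and 4 were below all controls and the other two CML libraries were among them, and the log2 fold change of -0.19 ± 0.12 (SE) did not pass (limma adjusted p = 0.828). PPAN and PA2G4 differed by -0.0061 and -0.019 on the log2 scale. PPAN shares exons with a readthrough gene of the table, and its reads, like those of RRS1, PA2G4 and NOP2, were not whole numbers in all libraries, so the levels of these 4 genes are uncertain; the reads of NOP56 and WDR74 were not whole in 1 library each.

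Differences between replicates of the members moved in part with transcript composition. In the 15 members with the most GC-rich transcripts, 53.4% to 61.9% GC, control replicate 4 lay below the mean of the other controls in all 15, with a median difference of -0.12 on the log2 scale. In the 15 most AT-rich members, 38.6% to 46.3% GC, it lay above in all 15, with a median of 0.0997. The corresponding medians for CML replicate 4 were -0.13 and 0.069. The shift occurred in both groups, and the difference between the groups showed little relation to GC content among the members (Pearson's r = 0.0199, Spearman's rho = 0.138, 45 members), and 13, 12 and 13 of the 15 members were higher with CML in the AT-rich, middle and GC-rich sets.

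**Figure D4:**
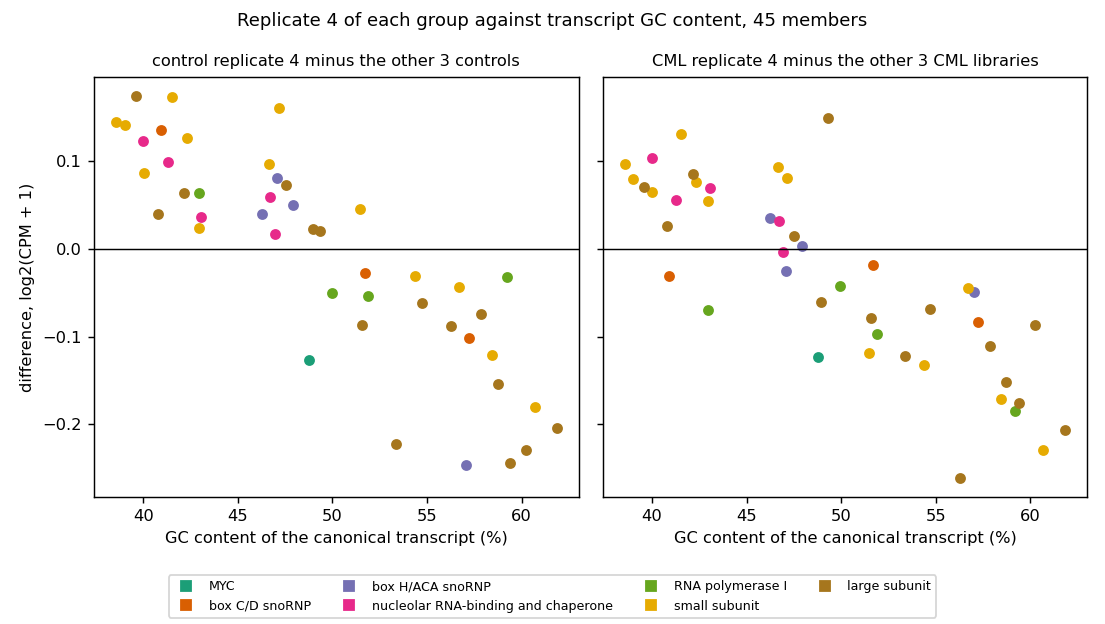
Difference between replicate 4 and the mean of the other 3 libraries of its group, on the log2(CPM + 1) scale, against GC content of the canonical transcript for 45 members, with controls at left, CML at right, and color for the role. In both panels the points fall from about 0.1 at the AT-rich end to about -0.2 at the GC-rich end.

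After a smooth fit of each library on GC content and on length was subtracted, the members' median SD within groups went from 0.0646 to 0.0513 on the log2 scale and was smaller for 38 of 45 members. In that fit 6 of 45 members were called, all higher with CML: MYC, NOLC1, DDX21, LYAR, RRP9 and EBNA1BP2, at limma adjusted p = 0.167, 0.282, 0.255, 0.22, 0.134 and 0.246. In this direction 4.24% of all 12934 genes were called, and 6.06% of those at least as abundant as the least abundant member. The log2 fold changes remained small, 0.12, 0.059, 0.052, 0.12, 0.15 and 0.083 in the same order. In this fit 36 members were higher with a median of 0.031, against a median of 0.0032 over all its genes. Without control replicate 4 alone, limma called NOLC1 (adjusted p = 0.282) among 3.04% of all genes called higher.

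Taken per kilobase of canonical transcript, the members' levels in controls covered a wide range. NPM1 stood first at 1387 ± 54.8 CPM per kb, followed by NCL at 223 ± 5.9 CPM per kb and GNL3, nucleostemin, at 123 ± 3.53 CPM per kb (SD, n = 4 each). NPM1 and NCL were each apart from the next gene in all 8 libraries, whereas GNL3 and the gene after it, NOP10 at 122 ± 4.63 CPM per kb, were not. MYC was 10th of 45 at 72.3 ± 3.42 CPM per kb. WDR12, UTP15 and URB2 were last, at 5.52 ± 0.433, 5.24 ± 0.422 and 4.29 ± 0.124 CPM per kb. Only 8 of the 44 neighboring pairs in this order were apart in all 8 libraries. GNL3, whose protein resides in the nucleolus of proliferating cells, had a log2 fold change of 0.039 with CML.

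Other genes of the same pathway were higher with CML at a share near that of abundant genes in general. Of 106 further genes of RNA polymerase I and the subunit assembly pathways, 0 were called, and 74 were higher with CML (69.8%), against 64.6% of the genes at least as abundant as the least abundant member and 58.8% of genes of at least 1 CPM, with a median log2 fold change of 0.034. Among the 47 other small-subunit factors, 35 were higher, and the smallest p-values belonged to BUD23, NGDN and WDR3, with log2 fold changes of -0.12, 0.089 and 0.084 (limma adjusted p = 0.486, 0.558 and 0.565). Among the 47 other large-subunit factors, 32 were higher, led by ZNF622, SBDS and SURF6 with 0.093, 0.091 and 0.12 (limma adjusted p = 0.489, 0.574 and 0.595). Of the 14 genes of the RNA exosome, which trims the rRNA precursors, 12 were higher (85.7%) and 0 were called, with a median of 0.052. That share was above the 64.6% of the abundant genes and was not tested. EXOSC2, EXOSC1 and EXOSC6 had changes of 0.12, 0.055 and -0.068 (limma adjusted p = 0.599, 0.788 and 0.831).

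Around MYC itself, the partner and antagonist genes were mixed in direction. Of 11 measured genes of the MYC network, 4 were higher and 7 lower, with a median of -0.0065 and 0 calls, and the smallest p-values were those of MYCL, MNT and MXI1, with -0.24, 0.099 and -0.067 (limma adjusted p = 0.847, 0.847 and 0.897). Of 30 commonly cited MYC targets outside the nucleolus, 24 were higher (80%), with a median of 0.047, and 0 were called. The share higher was 53.5% of all genes and 64.6% of the genes at least as abundant as the least abundant member. Of the 30, 7 were higher at an unadjusted limma p under 0.05, against 4.77% of all genes and 7.14% of those abundant genes. TFRC, the transferrin receptor, was at 497, 504, 517 and 544 CPM in controls and at 559, 559, 563 and 596 CPM with CML, and LDHA, lactate dehydrogenase A, was at 510, 513, 512 and 542 CPM in controls and at 548, 561, 546 and 573 CPM with CML. In both, every CML library exceeded every control, with log2 fold changes of 0.14 and 0.1 (limma adjusted p = 0.364 and 0.387). They were the 2 of the 30 with that pattern, which was found in 2.50% of all genes and 3.75% of the abundant ones. MCM4, a subunit of the replicative helicase, followed with 0.12 (limma adjusted p = 0.553).

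For most members the 95% interval of the main fit was narrow. It reflects the spread between these libraries only, and the choice of scaling is not part of it. The 95% interval lay within 0.3 of 0 on the log2 scale, a factor of 1.23, for 43 of 46 members, and the exceptions were RRP9, BOP1 and RRS1. Over all members the bounds reached from -0.48 to 0.43, and the interval lay above 0 for the 6 genes named at the start of the comparison. The intervals are not adjusted for the number of genes, so this restates their unadjusted limma p under 0.05 and adds no support.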

How the data were processed

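RNA of MDA-MB-231 cells, 4 control and 4 CML libraries, was sequenced on an Illumina instrument. The deposited values are CPM that the authors scaled with edgeR (build hg38, per the labels' processing notes); the aligner, counter and annotation are not given in the sources used here. Column sums were 986730 to 1014124. Between 86.2% and 87.2% of values above 0 were whole reads within 0.05 reads, so no count test was run. Rows sharing a symbol were averaged (17681 rows to 17649 genes). Groups were compared on log2(CPM + 1) with limma 3.58.1 (R 4.3.3), with a variance trend and Benjamini-Hochberg adjustment, and the script was tested on simulated data. Fold changes on this scale understate changes of low genes. GC content and length came from GENCODE v44lift37 canonical transcripts (GRCh37; BOP1 unmatched), coordinates and promoters from RefSeq GRCh38.p14. The members and gene lists were chosen with earlier results of these data known. Named in the text are MYC, the 2 members with the smallest p in each class, the 5 largest changes, all members lower with CML, the 3 highest and 3 lowest per kb, and the 3 smallest p of each further list; other members were named after their values were seen. Alternatives covered the pseudocount, a filter at 1 CPM, duplicate rows, scaling, the variance trend, GC and length, the replicate number and each library left out.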

Additional observations from a re-analysis of the deposited data

Results flagged for a closer look

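In 6 of 94 groups of 4 values (46 members and the estimated depth, each in 2 groups), 1 library lay far from the other 3 by Dixon's criterion, where chance alone flags about 1 in 20, or 4.7. GAR1 was at 35 CPM in control replicate 3, against 41.8 to 42.3 CPM in the other controls. In CML replicate 4, NOP14 was at 136 CPM against 147 to 149 CPM, RRP12 at 85.6 CPM against 96.2 to 96.7 CPM, and BOP1 at 42.9 CPM against 53.7 to 54.4 CPM in the other CML libraries. NOP2, whose reads were not whole in every library, was at 81.7 CPM in CML replicate 3, against 64.3 to 66.6 CPM. Control replicate 4 had the most estimated reads among the controls, 17729521 against 16559918 to 16690415. RRP12 and NOP14 have transcripts of 58.5% and 51.5% GC, and the part of GC content in these values was not tested further than in the comparison of the libraries numbered 4.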

How the results depend on the processing

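Over all genes, limma called 158 genes in the main fit. It called 189 with the replicate block (136 higher with CML), 73 after median centering and 869 after removal of GC and length. It called 962 with that and the replicate block, and 321 without both libraries numbered 4. With 1 library left out it called 20 to 690 (lowest without CML replicate 2, highest without control replicate 4). At a false discovery rate of 0.05 the main fit called 0 genes and the filter at 1 CPM 36. At that rate removal of GC and length called 173, and with the replicate block 203 of 12934 genes, with MYC the 1 member among them. The share of calls at 0.3 that were higher with CML was 75.3% in the main fit. It was 63% and 62.5% under median centering and quantile normalization. Members called went from 0 to 1 with the replicate block, to 6 and 7 after removal of GC and length without and with the block, to 1 without both libraries numbered 4, to 0 to 1 with 1 library left out, and to 3 by absence of overlap. Members higher with CML stayed between 34 and 40, and their median between 0.022 (median centering) and 0.054. MYC remained higher throughout, at 0.094 to 0.16 with 1 library left out; it was called with the replicate block (0.13, adjusted p = 0.263), after removal of GC and length (0.12) without and with the block (adjusted p = 0.167 and 0.0139), and without both libraries numbered 4 (0.13), and its adjusted p otherwise ranged from 0.437 to 0.774. It is not known whether the replicate numbers pair the libraries. Same-numbered deviations correlated at 0.199, -0.0303, -0.0645 and 0.334. Replicates 1 and 4 correlated best with their own number, and replicates 2 and 3 did not. NOP56 turned to -0.0012 and -0.0078 under median centering and quantile normalization, and NPM1 and WDR12 to 0.0096 and 0.012 without both libraries numbered 4. With 1 library left out, signs changed within these ranges: UTP15 -0.0091 to 0.077, PPAN -0.057 to 0.061, NPM1 -0.019 to 0.024, GAR1 -0.0027 to 0.087, POLR1C -0.029 to 0.0018, WDR12 -0.058 to 0.0297. The cause of these changes was not tested. Of 22 named members other than MYC, 15 kept their sign under all alternatives. Replicate pairs differed by 1.76 to 10.4 times the counting variance, so depth alone does not set the precision, and with 4 libraries a group the exact test cannot go below 0.0286.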
